A study of Sus scrofa with 12 samples.

Results

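The genes described here encode the mitochondrial SLC25 carriers and the proteins that bring newly made proteins through the mitochondrial membranes, measured in pig muscle. They were chosen by symbol, as every gene whose name starts with SLC25A (SLC25A25 aside), or with TIMM or TOMM and a digit, whatever its level. The rule found 40 genes among the 20741 features of the whole-genome count table, made up of 26 SLC25 genes, 6 TIMM genes and 8 TOMM genes. Of these, 35 passed the filter on low counts and were tested, and 5 did not. Genes of these families that are listed under an Ensembl ID with no symbol are not analysed here.

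RNA-seq was run on muscle from 12 pigs, 6 labelled high drip (HI) and 6 labelled low drip (LO), with 3 males and 3 females in each group. Drip is the fluid that meat loses after slaughter. The high drip animals were 167 to 186 days old and the low drip animals were 172 to 189 days old. No treatment or genetic change is labelled for either group, and the breed and the muscle sampled are not named in the labels used here. Each sample is 1 animal.

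SLC25 proteins sit mostly in the inner mitochondrial membrane and exchange nucleotides, phosphate, amino acids, cofactors and metabolites between the cytosol and the matrix. They are made in the cytosol like nearly all mitochondrial proteins. The TOM complex of the outer membrane receives and passes them, small TIM chaperones carry them across the intermembrane space, and the TIM22 complex inserts them into the inner membrane, while proteins with a cleavable presequence go through the TIM23 complex. In skeletal muscle the ADP/ATP and phosphate carriers supply oxidative phosphorylation with its substrates.

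Total counts ranged from 8009627 to 12622043 per animal. Each whole-genome file was given to the animal whose number it carries. For 9 animals this is also the file recorded for them. For the other 3, all females (high drip replicate 2 and low drip replicates 1 and 2), the recorded file carries another animal's number. The 9 therefore hold all the males but, of the females, only high drip replicates 1 and 3 and low drip replicate 3. Each animal's smaller table of chromosomal regions matched the file of its own number at 737 to 745 of 770 features, against at most 167 for any other file. For these 3 females the recorded file matched at 123 to 136 features. Low drip replicate 1 is recorded with the file of high drip replicate 2, and high drip replicate 2 with that of low drip replicate 2. Results given below with the files as recorded therefore place these counts in the other drip group. Fast and slow fibre genes were abundant in all 12 libraries, with TNNC2 at 14838 to 21602 CPM and TNNT1 at 2650 to 4260 CPM. Of 12 hepatocyte markers, 10 were found in the table by symbol and 9 of these were tested. The summed level of the 10 had a lowest, median and highest value of 2.93, 48.5 and 515 CPM in high drip animals, against 3.17, 7.14 and 88.5 CPM in low drip animals. The hepatocyte gene ALB was above 10 CPM in 6 libraries, high drip replicates 1 to 4 and low drip replicates 5 and 6.

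CPM, the usual unit that sets each count against the size of its library, was taken here over the counts of the tested features and scaled with TMM factors, which correct for differences in library composition. It is not divided by gene length, so an order by CPM is an order of reads and not of transcript numbers. The 40 genes took 0.352% to 0.460% of all counts in high drip animals, with a median of 0.400%, and 0.389% to 0.423% in low drip animals, with a median of 0.408%. The ranges of the groups overlapped. In bulk muscle, fewer cells of a type and less RNA per cell cannot be told apart.

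Most of these reads came from the carriers of adenine nucleotides and phosphate. SLC25A4 (ENSSSCG00000015790), the ADP/ATP carrier of heart and skeletal muscle, averaged 1784 ± 231 CPM (SD, n = 12) and held 44.2% of the counts of the 40 genes. Its lowest, median and highest values were 1315, 1787 and 2097 CPM in high drip animals, against 1723, 1805 and 2040 CPM in low drip animals. The low drip range lay inside the high drip range. Reads of SLC25A4 could be shared with near-identical ADP/ATP carrier genes, and reads that aligned to more than 1 place, 12.8% to 15.5% of the entries in each file, were not counted for any gene, so its level is uncertain.

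SLC25A3 (ENSSSCG00000000886), the phosphate carrier, followed with 973 ± 78.8 CPM (SD, n = 12) and 24.0% of the counts. It had 904, 973 and 1087 CPM (lowest, median, highest) in high drip animals, against 797, 972 and 1027 CPM in low drip animals. The groups overlapped and their medians nearly coincided. Both carriers kept their places in every animal, since the range of SLC25A3 did not overlap that of SLC25A4 above it or of TIMM8B below it.

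The next 4 places held 3 import genes and 1 carrier. TIMM8B, a small chaperone of the intermembrane space, had 157, 173 and 187 CPM in high drip animals, against 153, 167 and 176 CPM in low drip animals. TOMM20, a receptor of the TOM complex that binds presequences, had 152, 162 and 203 CPM in high drip animals, against 151, 157 and 208 CPM in low drip animals. TIMM8B and TOMM20 had the same mean of 168 CPM over the 12 animals, and their groups overlapped. TOMM22, the central receptor that holds the complex together, had 117, 127 and 136 CPM in high drip animals, against 112, 121 and 135 CPM in low drip animals. SLC25A12, the calcium-regulated aspartate/glutamate carrier of excitable tissues, had 107, 126 and 140 CPM in high drip animals, against 105, 108 and 156 CPM in low drip animals. For both genes the groups overlapped, and low drip replicate 3 had the highest SLC25A12 value.

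TOMM7, a small subunit of the TOM complex, averaged 105 ± 11.3 CPM, and SLC25A20, the carnitine/acylcarnitine carrier that brings fatty acids to oxidation, averaged 61.0 ± 6.35 CPM (SD, n = 12 each). SLC25A20 had 54.1, 64.4 and 68.0 CPM in high drip animals, against 50.0, 61.5 and 66.7 CPM in low drip animals. Every TOMM7 value was above every SLC25A20 value. 

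In all, 7 genes averaged above 100 CPM, 18 averaged between 10 and 100 CPM, and 10 tested genes averaged under 10 CPM. The middle class included SLC25A46 (60.0 CPM), an outer membrane protein involved in mitochondrial shape. It also included TIMM44 (38.5 CPM) and TIMM50 (34.6 CPM) of the TIM23 machinery, the TOM channel TOMM40 (31.9 CPM) and the TIM22 channel TIMM22 (14.7 CPM). The lowest tested genes were SLC25A16 (3.48 CPM), SLC25A45 (3.08 CPM) and SLC25A22 (2.84 CPM), the last of these a glutamate carrier. Of the 34 neighbours in the order, 5 had ranges that did not overlap over the 12 animals. Beside the places already described, these were TOMM20 above TOMM22 and TOMM40 above the S-adenosylmethionine carrier SLC25A26. The remaining neighbours could not be separated beyond their spread.

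**Figure D1:**
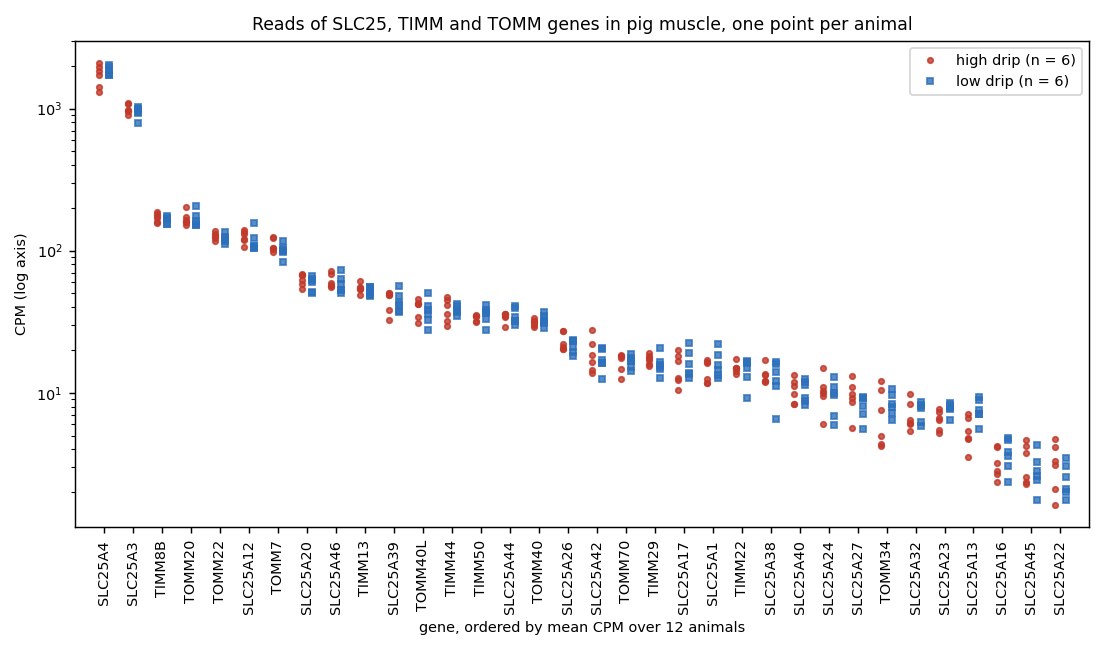
CPM on a log axis for 34 of the 35 tested genes, ordered by mean over 12 animals, with high drip animals as circles on the left of each gene and low drip animals as squares on the right. SLC25A4 and SLC25A3 stand clear of the rest, and the animals of both groups overlap for every gene.

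The 5 genes under the filter were near the limit of these libraries. SLC25A35 had 3 to 9 counts in every animal, 69 in all. SLC25A47 had 0 to 6 counts and was seen in 9 animals, with 33 in all. SLC25A48 had 1 count in each of 4 animals. SLC25A31, the ADP/ATP carrier best known from testis, and TOMM20L had 0 counts in all 12 libraries, which allows up to 3 counts, or 0.238 to 0.375 CPM, for counting error only.

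The spread between animals differed from gene to gene in each family. The SD of log2 CPM over the 12 animals was smallest for TOMM22 (0.09), TIMM8B (0.09), TIMM13 (0.10), another small chaperone, and TOMM40 (0.10). It was largest for TOMM34 (0.51), a cytosolic cochaperone of preproteins, SLC25A22 (0.50), SLC25A45 (0.43), the ATP-Mg/phosphate carrier SLC25A24 (0.41) and SLC25A13 (0.40), the aspartate/glutamate carrier known from liver. The 10 genes of largest SD comprised 9 SLC25 genes, 0 TIMM genes and 1 TOMM gene, and the 10 of smallest SD comprised 4, 3 and 3 of these families. Low counts add to the SD of low genes: counting alone gives an SD of 0.27 for SLC25A22 and 0.16 for TOMM34, against 0.04 for TOMM22. Import genes such as TOMM40L (0.25), TIMM22 (0.24) and TIMM44 (0.20) had a larger SD than abundant carriers such as SLC25A3 (0.12), and the families were not compared by a test. On log2(CPM + 1), the median SD was 0.197 for the 35 genes and 0.261 for all 10627 tested features.

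The main comparison of the study is high against low drip. No gene of these families passed the threshold of 0.05 on the adjusted p. The edgeR quasi-likelihood test with sex as a term called 0 of 35, and 0 of all 10627 features (0%). At an unadjusted p under 0.05 it found 1 of the 35, SLC25A13, against 380 of 10627 features (3.58%). DESeq2 and limma voom also called 0 features, with 363 and 371 at an unadjusted p under 0.05. The log2 fold (high minus low drip) was above 0 for 23 of the 35 genes (65.7%) and below 0 for 12, with a median of 0.06. Over all tested features it was above 0 for 5352 of 10627 (50.4%), with a median of 0.00175. With the 9 animals that have no conflict of files the median of the 35 was 0.000325, and with the files as recorded it was -0.0061. For no gene of the 35 were the 6 high and 6 low drip animals fully apart, which held for 12 of 10627 features (0.113%).

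By family, 13 of 22 SLC25 genes had a fold above 0 (median 0.05), 5 of 6 TIMM genes did (median 0.06) and 5 of 7 TOMM genes did (median 0.02). The folds ran from -0.49 to 0.38 on the log2 scale. The standard errors of single genes ran from 0.08 to 0.27.

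**Figure D2:**
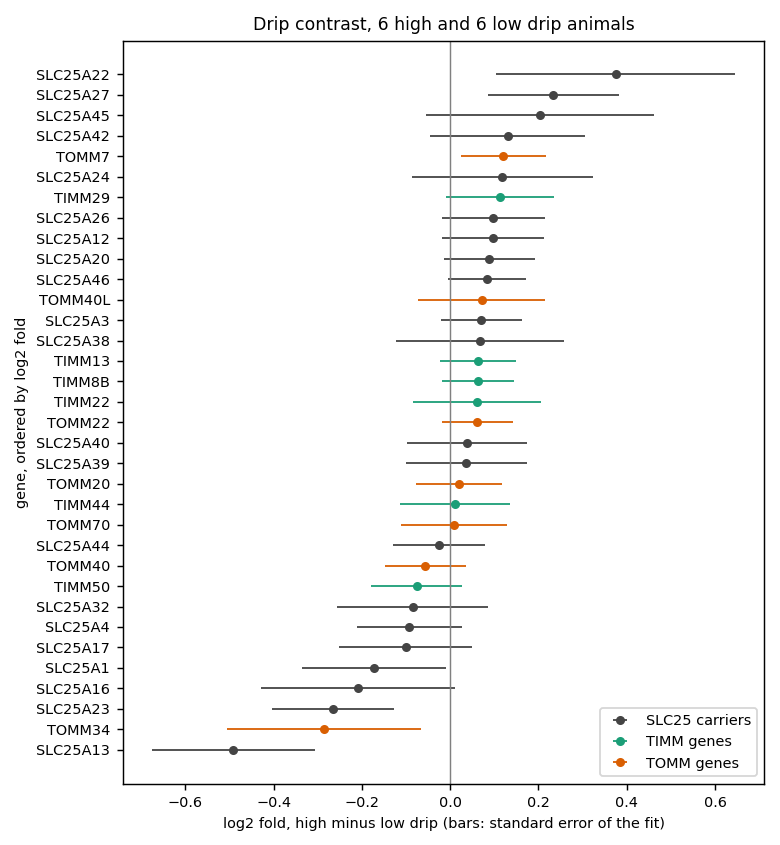
Log2 fold, high minus low drip, with the standard error of the fit, for 34 of the 35 tested genes from the highest at the top to the lowest at the bottom, coloured by family. SLC25A13 at -0.49 is the only gene more than 2 standard errors from 0, and no gene passed the adjusted threshold.

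The carrier genes of smallest p had lower values in high drip animals. SLC25A13 (ENSSSCG00000015336) had 3.56, 5.10 and 7.04 CPM (lowest, median, highest) in high drip animals, against 5.56, 7.32 and 9.28 CPM in low drip animals. In 4 of 6 high drip animals the level was under that of every low drip animal, but the ranges overlapped. Its fold was -0.49 ± 0.18 (log2, SE), with an edgeR adjusted p = 0.999. The fold was -0.53 in males and -0.45 in females fitted alone, and -0.23 with the files as recorded. Adding the summed hepatocyte level as a term gave -0.44 ± 0.20.

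SLC25A23, another calcium-dependent ATP-Mg/phosphate carrier, had 5.22, 6.54 and 7.71 CPM in high drip animals, against 6.41, 7.92 and 8.45 CPM in low drip animals. All low drip animals but 1 were above every high drip animal. The fold was -0.27 ± 0.14 (edgeR adjusted p = 0.999), with -0.12 in males, -0.41 in females and -0.06 with the files as recorded.

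Some low-level carriers had values on the other side. SLC25A27, also called uncoupling protein UCP4, had 5.64, 9.49 and 13.1 CPM in high drip animals, against 5.56, 8.62 and 9.39 CPM in low drip animals, with a fold of 0.23 ± 0.15, and 0.15 with the files as recorded. Its groups overlapped, with the highest values in high drip females. SLC25A22 had 1.62, 3.20 and 4.75 CPM in high drip animals, against 1.75, 2.33 and 3.50 CPM in low drip animals, with a fold of 0.38 ± 0.27. The high drip animals spanned the whole low drip range of SLC25A22, and 15 to 61 counts per animal lay behind it. Its fold was 0.74 in females, 0.04 in males, 0.09 in the 9 animals with no conflict of files and -0.14 with the files as recorded. It was 0.16 without high drip replicate 2, the animal with the highest summed hepatocyte level, and 0.17 with that level as a term.

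Among the import genes, TOMM34 had 4.20, 6.31 and 12.2 CPM in high drip animals, against 6.45, 8.14 and 10.7 CPM in low drip animals. The high drip animals were widely spread on both sides of the low drip ones, and the fold was -0.29 ± 0.22. The TOMM34 fold was -0.86 in males and 0.26 in females. In the 9 animals with no conflict of files, where males outnumber females, it was -0.56. It ranged from -0.43 (without low drip replicate 2) to -0.18 (without low drip replicate 4) when 1 animal was left out. TOMM7 had 97.3, 104 and 125 CPM in high drip animals, against 83.7, 101 and 116 CPM in low drip animals, with a fold of 0.12 ± 0.10. These groups overlapped through most of their range, and the fold was 0.04 in males, 0.21 in females, 0.06 with the files as recorded and 0.07 without high drip replicate 3. The edgeR adjusted p was 0.999 for each of these carriers and import genes.

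The most abundant genes had folds within 1 standard error of 0, at -0.09 ± 0.12 for SLC25A4 and 0.07 ± 0.09 for SLC25A3. For SLC25A4 the fold ranged from -0.17 (without high drip replicate 2) to -0.03 (without high drip replicate 1) when 1 animal was left out. It was -0.16 with the hepatocyte level as a term, -0.19 in the 9 animals and -0.20 with the files as recorded. For SLC25A3 it was 0.16 in males and -0.02 in females, and ranged from 0.02 (without low drip replicate 4) to 0.10 when 1 animal was left out. The channels and receptors of import had folds of -0.06 ± 0.09 for TOMM40, 0.06 ± 0.08 for TOMM22, 0.02 ± 0.10 for TOMM20, 0.01 ± 0.12 for the carrier receptor TOMM70, and 0.06 ± 0.14 for TIMM22. A p that misses the threshold does not show that these genes are alike in both groups.

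Genes that work beside these families were also compared between the drip groups. Of 54 partner genes of import, cristae organisation and related carriers, 32 were tested, 0 were called by edgeR and 0 had an unadjusted p under 0.05. Their fold was above 0 for 23 and below 0 for 9, with a median of 0.07. The smallest p belonged to MTX3, a metaxin of the outer membrane, with 3.30 ± 1.17 CPM in high drip animals and 4.50 ± 1.28 CPM in low drip animals (SD, n = 6 each). Its fold was -0.45 ± 0.26 (edgeR adjusted p = 0.999). MTX1, another metaxin, followed with 0.17 ± 0.12, and MICOS13, a cristae subunit, with 0.13 ± 0.09. All 11 tested genes of a list of mitochondrial content, such as enzymes of the citrate cycle and subunits of the respiratory chain, had a fold above 0, with a median of 0.11 and 0 called. For all features this was 5352 of 10627. Of the 11, 0 had an unadjusted p under 0.05 by edgeR. Their mean on the centred log2 scale overlapped, at -0.059 to 0.191 in high drip animals and -0.240 to 0.206 in low drip animals. 

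No marker of another cell type was called by edgeR in the drip comparison. The 9 tested hepatocyte markers had a median fold of 1.59, with 0 at an unadjusted p under 0.05. The 3 tested adipocyte markers had a median fold of -0.72, with 0 called and 2 at an unadjusted p under 0.05 by edgeR, and their summed level had 23.0, 37.5 and 68.7 CPM in high drip animals, against 43.8, 62.4 and 111 CPM in low drip animals. The median fold was 0.16 for 2 endothelial markers, -0.03 for 2 macrophage markers and -0.03 for 3 fibroblast markers. The 1 tested erythroid marker had a fold of 0.46, with 0 at an unadjusted p under 0.05 by edgeR. For the fibre types the median was 0.08 for 3 slow fibre markers and 0.02 for 2 fast fibre markers. The part of adipocyte and hepatocyte transcripts in the folds of the carriers was not tested beyond the fit with the hepatocyte term.

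Sex was the second factor of the design. The edgeR test called 0 of 35 genes and 0 of 10627 features (0%). DESeq2 called 2 features and limma voom 0, none of them among the 35. At an unadjusted p under 0.05 there were 5 of 35, against 681 of 10627 (6.41%), with 690 by DESeq2 and 709 by limma voom. Of the 5, SLC25A46, SLC25A17 and SLC25A40 were higher in males, and SLC25A27 and TOMM34 were lower in males. The median fold of the 35 (male minus female) was 0.01, with 18 above and 17 below 0, beside 5309 above 0 among all 10627 features. With total counts in place of TMM factors the median was 0.07, with 28 above and 7 below 0, and that scaling also moved the median of all features to 0.06.

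For 2 of the 35 genes (5.71%) the 6 males and 6 females did not overlap, against 32 of 10627 features (0.301%). Both shares are with TMM scaling. With total counts in place of TMM factors the sexes overlapped for both genes. The first was SLC25A27, with 5.56, 7.55 and 9.14 CPM in males, against 9.17, 9.61 and 13.1 CPM in females. The highest male lay just under the lowest female, and the fold was -0.48 ± 0.15 (edgeR adjusted p = 0.657). The second was SLC25A46, with 58.3, 65.9 and 73.5 CPM in males, against 50.0, 54.3 and 57.5 CPM in females. Its fold was 0.28 ± 0.09 (edgeR adjusted p = 0.669), with males above females in both drip groups.

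SLC25A17, the carrier of cofactors in the peroxisomal membrane, had 12.2, 18.7 and 22.6 CPM in males, against 10.4, 13.1 and 16.7 CPM in females. All low drip males were above all females but 1, and the ranges of the sexes overlapped. The fold was 0.44 ± 0.15 (edgeR adjusted p = 0.688).

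Whether the drip difference was the same in both sexes was asked with the product term of sex and drip, which is the log2 fold for drip in males minus the one in females. The edgeR test called 0 of 35 genes and 0 of 10627 features (0%), while DESeq2 called 7 features, none of them among the 35, and limma voom 0. At an unadjusted p under 0.05 there was 1 of 35, TOMM34, against 371 of 10627 (3.49%), with 329 by DESeq2 and 340 by limma voom. The median term of the 35 was -0.09, with 14 above and 21 below 0, beside 0.0032 and 5369 above 0 over all 10627 features. The sign of this median did not hold: it was 0.05 with the files as recorded and 0.01 without low drip replicate 6.

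TOMM34 (ENSSSCG00000007383) had 4.20, 4.39 and 5.0 CPM in the 3 high drip males, against 7.16, 7.98 and 9.69 CPM in the 3 low drip males. It had 7.63, 10.5 and 12.2 CPM in the 3 high drip females, against 6.45, 8.30 and 10.7 CPM in the 3 low drip females. The males of the drip groups were apart, with every high drip male also under every female, and the females overlapped. The product term was -1.12 ± 0.34 (log2, SE), with an edgeR adjusted p = 1.00. Fitted alone, males gave a drip fold of -0.86 and females 0.26. Hepatocyte transcripts were found in 1 of 3 high drip males against 2 of 3 low drip males, and in 3 of 3 high drip females against 0 of 3 low drip females. With their summed level as a term the product term was -1.63 ± 0.48. The 9 tested hepatocyte markers themselves had a median product term of -8.08, with 9 below 0. Of these, 0 were called by edgeR and 8 had an unadjusted p under 0.05, against 371 of 10627 features (3.49%). The added level and the product term thus vary together, and the adjusted value cannot tell them apart.

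SLC25A26 had 20.3, 20.4 and 20.9 CPM in high drip males, against 19.2, 23.3 and 23.5 CPM in low drip males. It had 22.0, 27.1 and 27.3 CPM in high drip females, against 18.1, 21.0 and 23.2 CPM in low drip females. The high drip males were close together and inside the low drip males, and the females overlapped by little. The product term was -0.40 ± 0.22 (edgeR adjusted p = 1.00). Adding the hepatocyte level gave -0.72, with the same limit as for TOMM34, and the files as recorded gave -0.23. SLC25A16, a carrier linked to coenzyme A, had a term of 0.59 ± 0.42 (edgeR adjusted p = 1.00), which became 0.17 with the files as recorded. It became -0.04 in the 9 animals with no conflict of files, where low drip replicate 3 is the only low drip female.

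**Figure D3:**
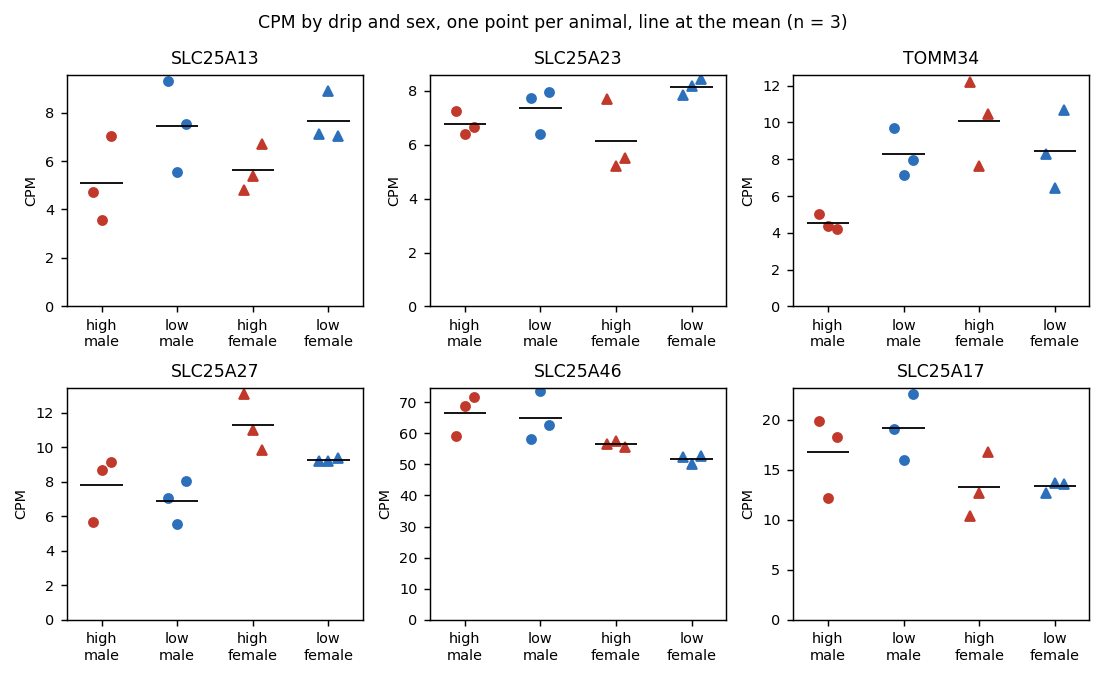
CPM of 6 genes on linear axes from 0, with each point an animal and each line the mean of 3 animals, for high and low drip males and then high and low drip females. TOMM34 is lowest in the 3 high drip males, at 4.20 to 5.0 CPM. SLC25A27 and SLC25A46 separate males from females on this TMM scale, but not with total counts.

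Co-variation was described as Pearson's r of log2(CPM + 1) over the 12 animals for the 595 pairs of tested genes. The median r was 0.04, beside -0.0017 over all pairs of tested features, and it was 0.01 among SLC25 genes, 0.06 among TIMM genes and 0.10 among TOMM genes. Between families it was 0.15 for TIMM with TOMM genes, 0.08 for SLC25 with TIMM genes and 0.06 for SLC25 with TOMM genes. A size of r of at least 0.6 was reached by 30 pairs (5.04%), 21 positive and 9 negative, against 6.11% of all feature pairs. No pair passed 0.05 after Benjamini-Hochberg adjustment over the 595 (smallest adjusted p = 0.542). In the permutation test 39 pairs had an unadjusted p under 0.05, and 29 with Spearman's rho, of which 0 passed.

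**Figure D4:**
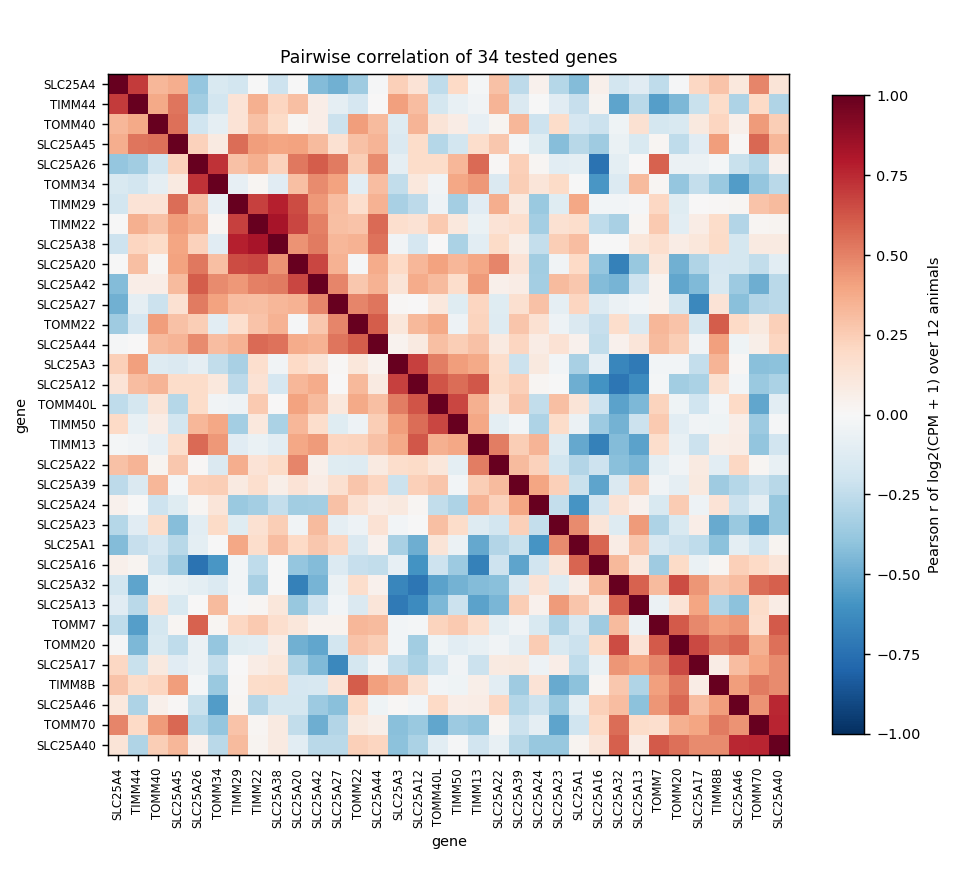
Pearson r of log2(CPM + 1) over 12 animals for each pair of 34 of the 35 tested genes, ordered so that similar genes stand together, with red for positive and blue for negative values. Small red blocks, such as TIMM22, TIMM29 and SLC25A38, lie in a field without one overall direction.

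The pair of highest r joined SLC25A38, the glycine carrier used in haem synthesis, and TIMM22. Its r was 0.823 (permutation p = 0.00895, adjusted p = 0.542) with a rho of 0.441. Low drip replicate 5 was lowest for both genes, with 6.60 CPM of SLC25A38 and 9.23 CPM of TIMM22, while high drip replicate 5 was highest for both, with 17.1 and 17.3 CPM. Without these 2 animals r was 0.195, and without low drip replicate 5 alone it was 0.408, so the relation rests on them. It was 0.937 in the 6 libraries with hepatocyte transcripts and 0.345 in the 6 without. SLC25A38 with TIMM29, another subunit of the TIM22 complex, gave an r of 0.780 (permutation p = 0.00412, rho 0.573). Without the 2 animals farthest from the median on TIMM29 it was 0.480, and without the 2 farthest on SLC25A38 it was 0.490.

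The pairs of SLC25A40 rested less on single animals. SLC25A40, a glutathione carrier, and TOMM70 had an r of 0.761 (permutation p = 0.00363, rho 0.790). Without the 2 animals farthest on TOMM70 it was 0.731, and without the 2 farthest on SLC25A40 it was 0.848. In libraries with and without hepatocyte transcripts r was 0.767 and 0.812. SLC25A40 with SLC25A46 had an r of 0.754 (permutation p = 0.00532, rho 0.741). Without the 2 animals farthest on SLC25A46 it was 0.645, and without the 2 farthest on SLC25A40 it was 0.615. It was 0.569 and 0.893 in libraries with and without hepatocyte transcripts. Both genes were higher in males (sex folds 0.32 for SLC25A40 and 0.28 for SLC25A46), and this r includes that difference. SLC25A26 with TOMM34 had 0.724 (permutation p = 0.00787, rho 0.804). Without the 2 animals farthest on SLC25A26 it was 0.549, and without the 2 farthest on TOMM34 it was 0.813. The adjusted p was 0.542 for each of these pairs. After the means of sex and drip were taken out, SLC25A26 with TOMM34 had an r of 0.924 and was the only pair past the threshold (adjusted permutation p = 0.01785). That p treats the residuals as free values and does not allow for the means taken out. A product term of sex and drip also stays in these residuals. It was negative for both genes (-1.12 for TOMM34, -0.40 for SLC25A26), and its part in this r was not tested.

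Among the pairs of most negative r, SLC25A26 and SLC25A16 had -0.738 (permutation p = 0.00622, rho -0.657). It was -0.610 without the 2 animals farthest on SLC25A26 and -0.811 without the 2 farthest on SLC25A16. SLC25A12 and the folate carrier SLC25A32 had -0.725 (permutation p = 0.00903, rho -0.769). It was -0.601 without the 2 animals farthest on SLC25A12 and -0.653 without the 2 farthest on SLC25A32. The adjusted p was 0.542 for both pairs.

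Each gene was also set against a mitochondrial content score, the mean of 11 nuclear genes of mitochondria on the log2 scale. This comparison was not among the planned ones. Of these 35 relations only SLC25A12 passed the threshold, with an r of 0.850 (permutation p = 0.00054, adjusted p = 0.0189) and a rho of 0.839 (adjusted p = 0.04375). SLC25A12 was highest in low drip replicate 3, at 156 CPM, which also had the highest score, and r was 0.786 without the 2 animals farthest on the score. It was 0.682 in the 6 libraries with hepatocyte transcripts and 0.908 in the 6 without. The adjusted p was 0.131 with total counts in place of TMM factors, and 0.0817, 0.0588 and 0.0651 without low drip replicate 3, high drip replicate 4 and low drip replicate 4, so the call was lost under each of these, where r was 0.783 or above.

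SLC25A3 had the next highest r with the score, at 0.639 (permutation p = 0.0236, adjusted p = 0.311). At the other end SLC25A13 had -0.618 and SLC25A32 -0.609 (adjusted permutation p = 0.311 for both). The aspartate/glutamate carriers thus lay at opposite ends of this order, and with each other they had an r of -0.627 (permutation p = 0.0297, adjusted p = 0.720, rho -0.741), a pair looked at after its values were seen.

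**Figure D5:**
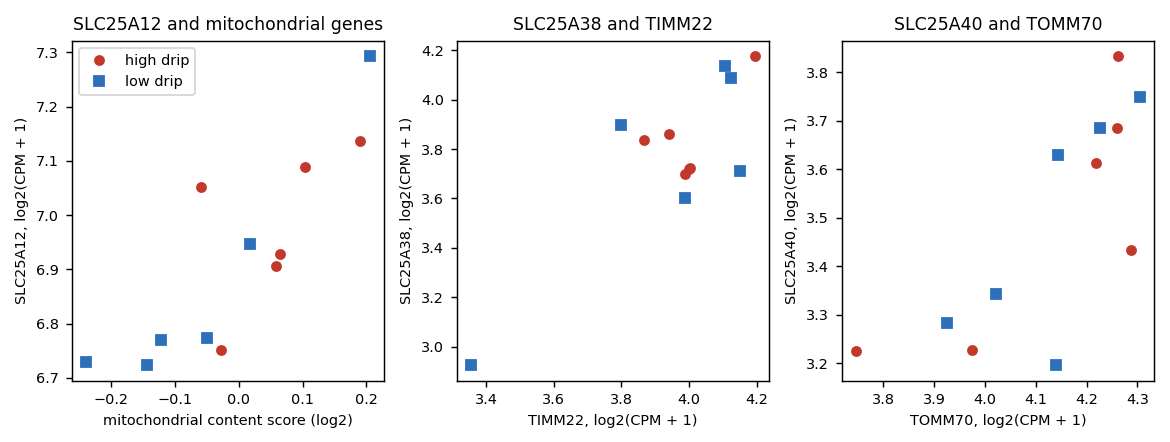
SLC25A12 against the mitochondrial content score, SLC25A38 against TIMM22, and SLC25A40 against TOMM70, in log2 units, with high drip animals as circles and low drip animals as squares. The middle panel shows low drip replicate 5 far from the others, and the outer panels show a spread over the whole range.

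A single score over the 35 genes, the mean of log2(CPM + 1) less each gene's mean, had an SD of 0.055 over all animals. A mean of many weakly correlated genes has a small SD, so this value does not show that the single genes were stable. The score averaged 0.004 ± 0.029 in high drip animals and -0.004 ± 0.076 in low drip animals (SD, n = 6 each), and the groups overlapped. Of 7304 tested genes with a symbol, those whose levels followed it most closely were TARBP2 (r = 0.861), ZNF389 (0.851), WDCP (0.845), ORMDL3 (0.841) and SMG5 (0.841). The adjusted permutation p was 0.448 for each of the 5.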

How the data were processed

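Per the submitters' processing notes, the tools behind the files were TopHat2 2.0.3, Bowtie 0.12.7.0 and HTSeq, with the build Sscrofa10.2. The authors deposited whole-number counts of reads per feature, not normalized. Strand setting, annotation release and gene lengths are not given in the sources used here. HTSeq's summary lines were left out of totals. Symbols came from a table of gene IDs, which named 10349 of 20300 Ensembl genes. A planned order per coding length could not be made.

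Counts were filtered with filterByExpr (minimum count 10), scaled with TMM and tested with edgeR 4.0.16 in R 4.3.3 (quasi-likelihood F-test, two-sided, Benjamini-Hochberg over all 10627 tested features, threshold 0.05). Folds are log2, and the standard error of the fit is the size of the fold over the square root of its F statistic. The drip and sex terms came from 1 fit of both, and the product term from a fit with the product. Correlations used log2(CPM + 1) and 100000 permutations. Only the edgeR fits of drip, sex and the product term were tried on simulated data. Alternatives were DESeq2 1.42.0, limma 3.58.1 (voom), other scalings, no filter, other covariates, the files as recorded, 9 animals and leaving out each animal. Terms for the hepatocyte level in the sex and product fits, and all alternatives for the mitochondrial score, were chosen after seeing the data.

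Named genes were the 8 of highest CPM, the 6 of smallest p for drip, the 3 of smallest p for sex and for the product term, all genes under the filter, and the 5 pairs of highest and 3 of lowest r, with 1 gene and its pair not reported here, with up to 3 partner genes and the 5 genes most like the common score. Members and lists were chosen with earlier results of these data known. The hepatocyte list had 9 tested genes. Intervals and limits of 0 counts cover counting error only.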

Additional observations from a re-analysis of the deposited data

Results flagged for a closer look

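In 70 groups of 6 animals, 1 for each of 35 genes and drip levels, 4 held an animal far from the others relative to the spread of its group. Chance alone flags about 5% of groups, or 3.5 of 70, and no animal was flagged for more than 1 gene. SLC25A38 had 17.1 CPM in high drip replicate 5, with the next high drip animal at 13.5 CPM. SLC25A44, a carrier of branched-chain amino acids, had 29.1 CPM in high drip replicate 4, with the next at 33.9 CPM. SLC25A12 had 156 CPM in low drip replicate 3, with the next low drip animal at 122 CPM. SLC25A23 had 6.41 CPM in low drip replicate 5, with the next at 7.75 CPM.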

How the results depend on the processing

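The counts of called genes of these families stayed at 0 for drip, sex and the product term under every alternative run. Over all features, sex gave 1 called feature with no low-count filter and 2 with DESeq2, and the product term gave 7 with DESeq2. The number of correlated pairs, 0 as reported, was 1 after the means of sex and drip were taken out (SLC25A26 with TOMM34), by a p that does not allow for those means. It ranged from 0 to 1 when 1 animal was left out, the 1 being SLC25A12 with SLC25A13 without low drip replicate 3 (r = -0.914, adjusted permutation p = 0.0357). The number of genes correlated with mitochondrial content, 1 as reported, was 0 with total counts only, and ranged from 0 to 1 when 1 animal was left out. Named genes that changed sign were the drip folds of SLC25A22 with the files as recorded (-0.14), of TOMM34 in females only (0.26) and of SLC25A3 in females only (-0.018), and the product term of SLC25A16 in 9 animals (-0.041). Medians over the 35 genes also changed sign. The drip median was -0.0061 with the files as recorded. The product median ranged from -0.13 to 0.012 when 1 animal was left out, and was 0.049 with the files as recorded and -0.0083 with total counts, which moved the median of all features to 0.079. The sex median, near 0, ranged from -0.019 in 9 animals to 0.07 with total counts. The cause was not tested. With total counts, 31 of 35 genes kept their rank by CPM. No paired analysis was possible because replicate numbers only follow the order of the samples and the labels used here name no pairs. Whether animals were related or matched across groups is not known. Genes under about 10 CPM rest on few counts (15 to 61 for SLC25A22), which limits what could be seen.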
